A study of Mus musculus with 6 samples.

Results

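The mitochondrial carrier genes were taken as all genes in the count tables whose symbol is Slc25a followed by digits. Of the 54752 genes in the tables, 54723 had a symbol and 47 were Slc25a genes. Of these 47 genes, 42 had enough counts to be tested, among 18617 tested genes in all. RNA was measured by paired-end RNA-seq in the whole right hippocampus of male wild-type C57BL/6 mice (C57BL/6 J in the methods of the study), 3 with bilateral carotid artery stenosis (BCAS) and 3 with a sham operation. In BCAS mice, blood flow to the brain was reduced by a microcoil around each common carotid artery, with unequal inner diameters on the left and right sides, and sham mice had the operation without microcoils. All 6 mice were 14 weeks old by their labels and were sampled 3 weeks after surgery, with 1 library per mouse, so p-values measure the spread between 3 mice per group. BCAS narrows the carotid arteries and does not occlude them, and the hippocampus was taken whole, so its cell types were not separated.

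Mitochondrial carriers are small membrane proteins that move metabolites, nucleotides and cofactors across the inner mitochondrial membrane, which is otherwise closed to them. They are encoded in the nucleus, made in the cytosol and inserted by a dedicated import route. In brain they supply ATP to the cytosol, pass the reducing equivalents of the malate-aspartate shuttle into mitochondria, and bring glutamate to the enzymes that oxidize it. Several carriers come as a pair of closely related genes with different tissue or cell distribution, as for the aspartate/glutamate carriers aralar and citrin.

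The libraries held 29652456 to 35607098 counts, and a count of 3 in a library, taken as the floor, corresponded to 0.0875 to 0.0995 CPM (counts scaled to the library total, with TMM factors of 0.964 to 1.05). The floor covers counting error only. Markers of several cell types differed between the groups. The summed level of 7 microglia and macrophage markers was 243 to 255 CPM in sham mice and 1378 to 2206 CPM in BCAS mice, with the top value in BCAS mouse 3, and 7 of 7 were higher. The sum of 5 astrocyte markers was 1056 to 1126 CPM in sham mice and 1960 to 2091 CPM in BCAS mice, and 5 of 5 were higher. For 5 endothelial markers the sum was 220 to 241 CPM in sham mice and 299.6 to 335 CPM in BCAS mice, and 4 of 5 were higher. Neuronal markers summed to 5614 to 6038 CPM in sham mice and 3222 to 4588 CPM in BCAS mice, with 4 of 6 lower, markers of CA1 pyramidal neurons were lower for 3 of 5, and interneuron markers were lower for 5 of 6. None of the 5 oligodendrocyte markers passed the test, and their sums overlapped between the groups. Dentate granule markers were present in all mice, with sums of 203 to 299 CPM in sham mice and 136 to 315 CPM in BCAS mice, and 2 of 5 were lower, Tdo2 (−1.50, edgeR adjusted p = 0.00288) and Dsp (−1.31, edgeR adjusted p = 0.0246). Markers of the labelled tissue were thus present, and no marker of any list was at a count of 0 in a library. Choroid plexus markers set single libraries apart in both groups, with sums of 989, 4082 and 70.8 CPM in sham mice 1 to 3 and 5924, 40.4 and 3216 CPM in BCAS mice 1 to 3. In these bulk samples, fewer cells of a type and less RNA per cell cannot be told apart, and the part of these shifts in the carrier results was not tested except where a value is given.

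Carrier genes moved in both directions. A gene is called higher or lower here when edgeR's quasi-likelihood test gave a Benjamini-Hochberg adjusted p under 0.05 over all 18617 tested genes. Of the 42 tested carriers, 15 passed the test (35.7%), beside 31.3% of all tested genes, so the share of carriers called was close to the background. The 6 carriers that were higher in BCAS mice made up 14.3% of those tested, beside 18.0% of all genes. The 9 that were lower made up 21.4%, beside 13.2% of all genes. Only Slc25a43 and Slc25a45, both higher, were also past an absolute log2 fold change of 1, beside 9.46% of all genes (8.47% higher and 0.999% lower). Slc25a43 passed the filter on low counts only through its BCAS libraries, so it could be tested only because it was high there, and its place among the 15 and the 6 is a description. The groups did not overlap in CPM for 9 carriers that were above and 18 that were below sham, beside 25.3% and 22.7% of all genes (48.0% in either direction).

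The median log2 fold change of the 42 carriers was −0.0946, with quartiles of −0.30 and 0.23, and the median over all tested genes was 0.0183. Fitted values were below 0 for 26 carriers (61.9%), beside 48.2% of all genes. Summed over the family, the carriers had 3358, 3443 and 3671 CPM in sham mice 1 to 3 and 2998, 3179 and 2816 CPM in BCAS mice 1 to 3. Every BCAS mouse was below every sham mouse in this sum, with means of 3491 ± 162 and 2998 ± 181 CPM (SD, n = 3 each). The 5 carriers with the most counts, Slc25a4, Slc25a3, Slc25a23, Slc25a22 and Slc25a5, held 57.6% of the sum in sham mice, and of these Slc25a4 and Slc25a22 passed the test as lower. Without sham mouse 3 the number of carriers called was 9, with 4 higher and 5 lower, and the median was −0.0522, while the share of all genes called fell likewise, to 19.8%. With the choroid plexus level as a covariate, an alternative chosen after seeing the data, 19 carriers were called, among them all 15, beside 34.9% of all genes.

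**Figure D1:**
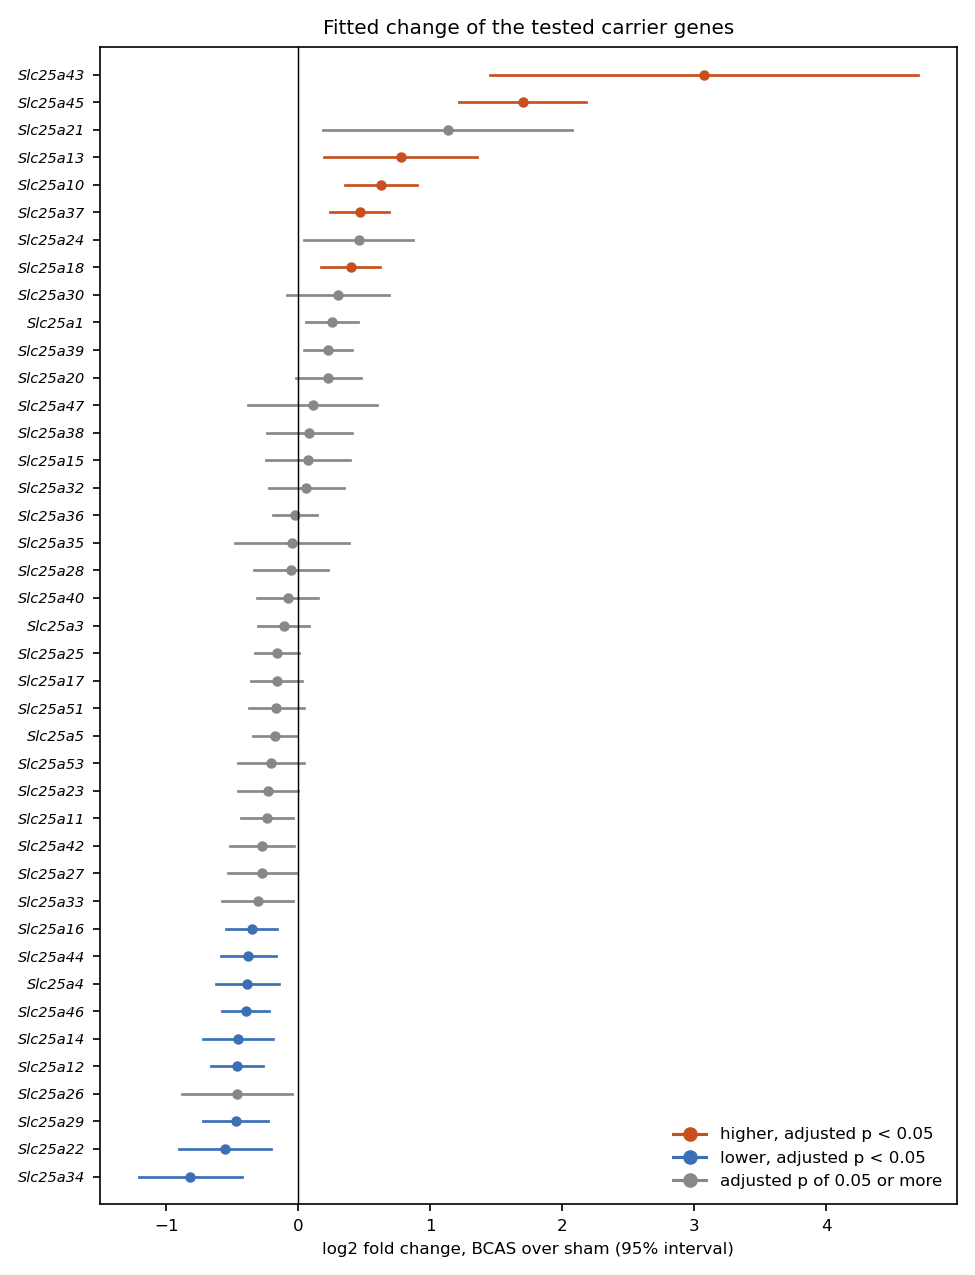
Fitted log2 fold change of 41 of the 42 tested carrier genes, BCAS over sham, with 95% intervals from edgeR, colored by whether the gene passed an adjusted p of 0.05. The 6 higher carriers lie right of 0 and reach 3.07 for Slc25a43, and the 9 lower ones lie between −0.82 and −0.35.

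Levels of different genes were compared as RPKM, which divides the CPM of a gene by its exon length in kilobases. Sham means ran from 0.0164 RPKM for Slc25a54 to 267 RPKM for Slc25a4. The ADP/ATP carrier Slc25a4 was the top member in sham mice with 267 ± 21.9 RPKM (SD, n = 3), followed by Slc25a5 with 138 ± 7.35 RPKM and the phosphate carrier Slc25a3 with 78.9 ± 5.77 RPKM. Next came the ATP-Mg/phosphate carrier Slc25a23 with 72.9 ± 1.10 RPKM and the glutamate carrier Slc25a22 with 55.3 ± 5.34 RPKM. The ranges of the 3 sham mice were apart between each of these neighbors, while Slc25a22 overlapped the next gene, the oxoglutarate carrier Slc25a11, at 51.4 ± 5.13 RPKM. The 5 top members held 60.6% of the summed RPKM of the family in sham mice. In BCAS mice the 5 top members by mean held 57.9%, and Slc25a18 had taken the place of Slc25a22 among them. The BCAS range of Slc25a18, 40.1 to 52.2 RPKM, overlapped those of Slc25a11 (41.8 to 45.8 RPKM) and Slc25a22 (29.2 to 45.9 RPKM). At the low end, Slc25a2, Slc25a31, Slc25a41, Slc25a48 and Slc25a54 did not pass the filter on low counts, and from Slc25a41 downward all neighbors overlapped.

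**Figure D2:**
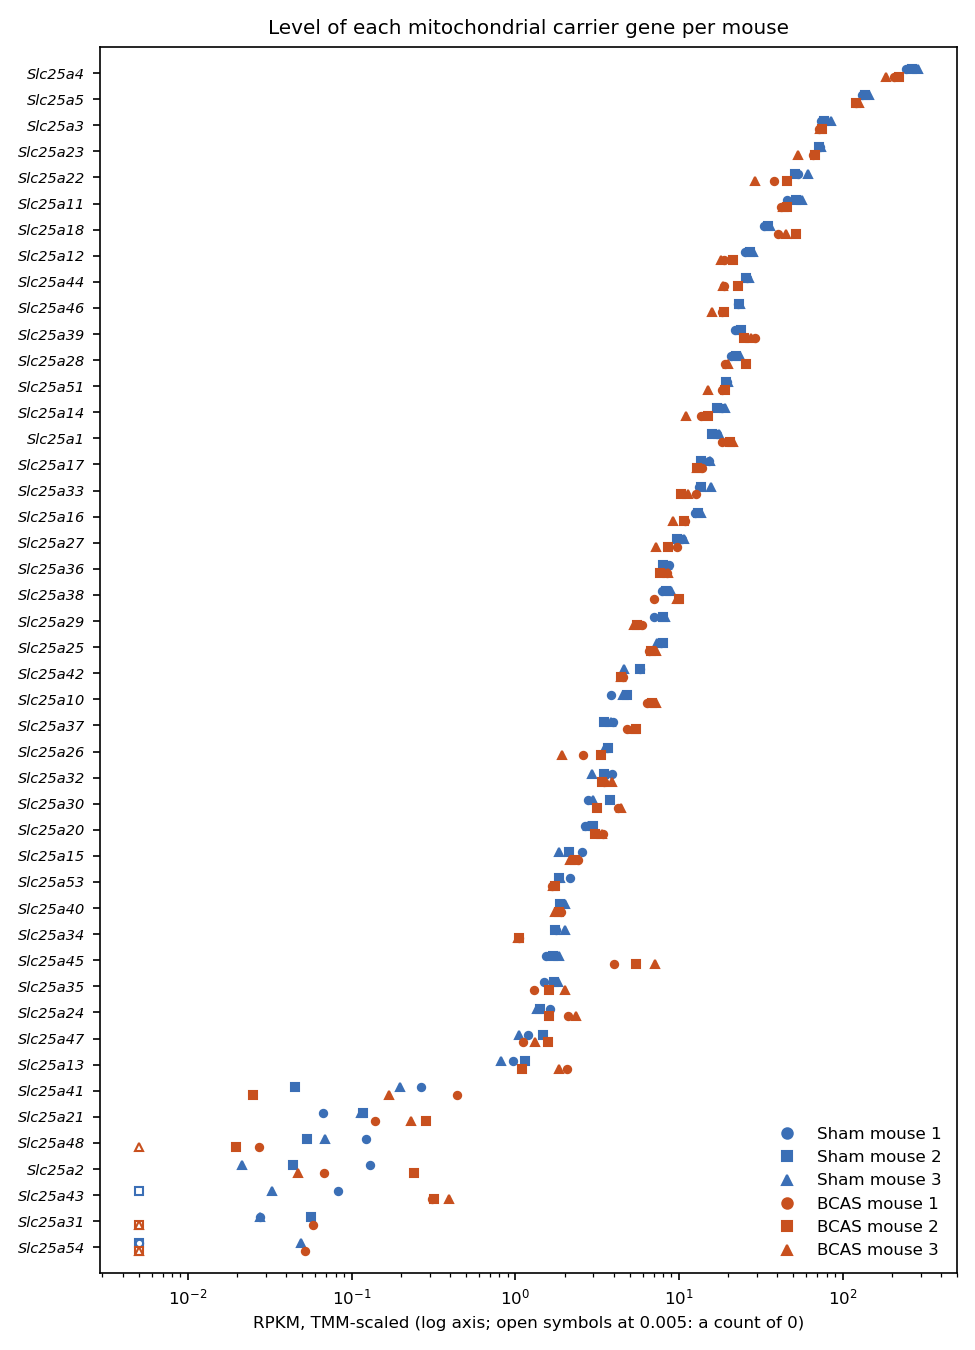
TMM-scaled RPKM of 46 of the 47 carrier genes in each of the 6 mice on a log axis, ordered by the sham mean, with open symbols at 0.005 for a count of 0. Slc25a4 leads in both groups with means of 267 and 204 RPKM, and Slc25a45, which lies among the low members in sham mice, is moved to the right in all 3 BCAS mice.

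The aspartate/glutamate and glutamate carriers were the role in which all 4 members passed the test, 2 lower and 2 higher, beside 31.3% of all tested genes (13.2% lower and 18.0% higher), which also stand beside the counts of the other roles. With single mice left out, Slc25a12 alone of the 4 was called in every fit. Slc25a12 (aralar) and Slc25a13 (citrin) exchange mitochondrial aspartate for cytosolic glutamate and a proton, a step of the malate-aspartate shuttle. Slc25a22 and Slc25a18 bring glutamate into mitochondria together with a proton. In each pair the member with the higher level in sham mice was lower in BCAS mice and its relative was higher. The 250 bases before RefSeq starts of these genes, on GRCm38.p6, are given because the members of each pair moved apart. Each is printed 5′ to 3′ on the strand of its gene, and capitals mark a CCAAT box (CCAAT), a GC box (GGGCGGG) or an E box (CACGTG) on either strand, of which adjacent GC boxes overlap each other. Slc25a12 lies at chr2:71367756-71368005 (minus strand), Slc25a13 at chr6:6217174-6217423 (minus), Slc25a22 at chr7:141437875-141438124 (minus) and Slc25a18 at chr6:120773518-120773767 (plus). The windows given for Slc25a18 and Slc25a22 run into the spans of these genes in the annotation used for counting. The starts in that annotation lie before those of RefSeq. For Slc25a22, RefSeq gives 3 starts. The window of the outermost one is shown, and after it the window of an inner start at chr7:141435376-141435625 (minus), which lies inside the gene and was chosen because it is the one of the 3 that holds these letters.
Slc25a12: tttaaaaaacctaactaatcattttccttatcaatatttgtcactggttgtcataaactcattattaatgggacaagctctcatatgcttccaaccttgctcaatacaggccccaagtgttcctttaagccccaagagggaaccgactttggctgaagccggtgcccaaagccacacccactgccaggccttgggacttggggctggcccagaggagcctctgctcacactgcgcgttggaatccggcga
Slc25a13: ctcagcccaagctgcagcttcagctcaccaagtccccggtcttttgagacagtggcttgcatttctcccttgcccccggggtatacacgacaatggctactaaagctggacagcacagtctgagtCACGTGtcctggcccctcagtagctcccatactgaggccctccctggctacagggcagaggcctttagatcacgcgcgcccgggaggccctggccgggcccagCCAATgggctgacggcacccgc
Slc25a22: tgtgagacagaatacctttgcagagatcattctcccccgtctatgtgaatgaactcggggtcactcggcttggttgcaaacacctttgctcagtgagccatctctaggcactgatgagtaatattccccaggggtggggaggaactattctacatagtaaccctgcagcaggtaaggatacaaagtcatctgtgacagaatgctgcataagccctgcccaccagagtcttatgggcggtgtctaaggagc
Slc25a22, inner start: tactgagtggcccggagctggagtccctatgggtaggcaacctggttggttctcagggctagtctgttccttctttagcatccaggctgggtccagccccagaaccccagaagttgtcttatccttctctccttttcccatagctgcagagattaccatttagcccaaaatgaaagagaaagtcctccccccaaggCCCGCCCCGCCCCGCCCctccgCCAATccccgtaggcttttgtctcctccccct
Slc25a18: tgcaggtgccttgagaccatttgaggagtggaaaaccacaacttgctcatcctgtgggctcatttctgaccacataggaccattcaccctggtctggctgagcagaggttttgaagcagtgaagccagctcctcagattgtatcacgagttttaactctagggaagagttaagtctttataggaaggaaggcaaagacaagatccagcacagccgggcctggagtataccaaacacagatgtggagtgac

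These windows hold a CCAAT box and an E box for Slc25a13, a CCAAT box and a run of GC boxes for the inner start of Slc25a22, and none of the letters for Slc25a12, Slc25a18 and the outermost start of Slc25a22. A gene with several starts was counted when any of its windows held the letters, for carriers and for all genes alike. Over the 36 carriers with a promoter in the table, 18 had a CCAAT box in the 250 bases, beside 37.5% of 27025 genes. A GC box was found in 18 of the 36, beside 25.7% of genes, and an E box in 7 (19.4%), beside 6.86%. The core of the NRF1 motif, searched in the same way, was found in 2 of the 36 (5.56%), close to the 4.23% of genes, and in none of the lower or higher members. Among carriers with a promoter, a CCAAT box was present in 4 of 7 lower and 1 of 5 higher members, and a GC box in 4 of 7 lower and 0 of 5 higher members. These are matches of letters in a fixed window and were not tested.

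Slc25a12, the aspartate/glutamate carrier of neurons and muscle, spans chr2:71271063-71367749 on the minus strand. Its level was 186, 199 and 208 CPM in sham mice 1 to 3 and 139, 158 and 133 CPM in BCAS mice 1 to 3. All 3 BCAS mice were below the lowest sham mouse. The means were 198 ± 11.1 and 143 ± 12.9 CPM (SD, n = 3 each), and the log2 fold change was −0.46 (SE 0.0869, 95% interval −0.66 to −0.27, edgeR adjusted p = 0.00447). Slc25a13, which is best known as the liver form, spans chr6:6041218-6217173 on the minus strand. It had 3.69, 4.37 and 3.09 CPM in sham mice and 7.91, 4.18 and 6.99 CPM in BCAS mice. BCAS mouse 2 lay within the sham range, so the groups overlapped, and the rise was 0.78 on the log2 scale (SE 0.26, 95% interval 0.19 to 1.36, edgeR adjusted p = 0.0475).

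The 6 mice had the same order in Slc25a13 and in the summed choroid plexus markers within each group, with sham mouse 2 top among sham mice and BCAS mouse 1 top among BCAS mice. With the choroid plexus covariate, the log2 fold change of Slc25a13 was 0.69 (edgeR adjusted p = 0.0119). The call on Slc25a13 was lost when any 1 of 5 mice was left out. Leaving out sham mouse 1, 2 or 3 gave an edgeR adjusted p of 0.125, 0.0630 or 0.158, and leaving out BCAS mouse 1 or 3 gave 0.149 or 0.123. It was 0.0660 with limma-voom and 0.104 with the replicate number as a block.

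Slc25a22 (chr7:141429744-141437892, minus strand) had 318, 308 and 368 CPM in sham mice and 228, 275 and 175 CPM in BCAS mice. BCAS mouse 3 was the lowest, and all 3 BCAS mice were below the sham range. The log2 fold change was −0.55 (SE 0.15, 95% interval −0.90 to −0.21, edgeR adjusted p = 0.0246). Slc25a18 (chr6:120773578-120794336, plus strand) had 63.2, 67.4 and 68.6 CPM in sham mice and 76.6, 99.7 and 86.1 CPM in BCAS mice, all above sham. It was higher by 0.40 on the log2 scale (SE 0.0994, 95% interval 0.17 to 0.62, edgeR adjusted p = 0.0161). Its exons share 32 bases with those of Atp6v1e1 on the other strand, a gene with a mean of 332 CPM in sham and 238 CPM in BCAS mice, and reads in such shared bases were not assigned. The call on Slc25a22 was lost without sham mouse 1 (edgeR adjusted p = 0.0644), sham mouse 3 (0.0978) or BCAS mouse 1 (0.0534), and with the replicate block (0.0527). For Slc25a18 it was 0.0721 without sham mouse 1 and 0.0528 without sham mouse 2.

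The ratio of the RPKM of 2 related carriers within a library does not depend on the scaling of that library. The ratio of Slc25a12 to Slc25a13 was 26.1, 23.5 and 34.9 in sham mice 1 to 3, against 9.06, 19.6 and 9.88 in BCAS mice. Slc25a12 thus remained the more abundant form in all 6 mice. The ratio of Slc25a22 to Slc25a18 was 1.61, 1.46 and 1.71 in sham mice 1 to 3, against 0.951, 0.879 and 0.648 in BCAS mice. The ratio was above 1 in every sham mouse and below 1 in every BCAS mouse, but its place relative to 1 rests on the exon lengths used, 5992 bases for Slc25a22 and 1911 for Slc25a18. In CPM, Slc25a22 was above Slc25a18 in all 6 mice. On the log2 scale the first ratio differed by −1.20 ± 0.39 (SE) and the second by −0.96 ± 0.18 (SE) between BCAS and sham mice.

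In all, 10 pairs of related carriers were compared in this way. For 7 pairs the groups did not overlap. The 48.0% of single genes without overlap in CPM is a different measure, and no background of ratios was computed. The pairs were chosen with earlier results of these data known, so this count is a description. Each of the 7 had an exact two-sided permutation p of 0.1 and an adjusted p of 0.143 over the 10 pairs. With 3 mice against 3 this test cannot go below 0.1, so no pair could pass a threshold of 0.05. The ratio of Slc25a11 to Slc25a10 was 10.7 to 12.3 in sham mice, against 5.93 to 6.68 in BCAS mice, a log2 difference of −0.87 ± 0.0813 (SE). For Slc25a28 over Slc25a37 it was 5.24 to 6.44 in sham mice, against 3.75 to 4.65 in BCAS mice, a difference of −0.53 ± 0.13 (SE). Slc25a4 over Slc25a5 was 1.87 to 1.98 in sham mice, against 1.48 to 1.83 in BCAS mice, a difference of −0.22 ± 0.0943 (SE), which was −0.13 without BCAS mouse 3. In 2 pairs the ratio was above sham in all BCAS mice, by 0.31 for Slc25a39 over Slc25a40 and by 0.28 for Slc25a36 over Slc25a33. The groups overlapped for Slc25a14 over Slc25a27 (−0.18, exact permutation p = 0.2, and −0.10 without BCAS mouse 1), for Slc25a23 over Slc25a25 (−0.0703, exact permutation p = 0.9) and for Slc25a42 over Slc25a16 (0.0904, exact permutation p = 0.8).

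**Figure D3:**
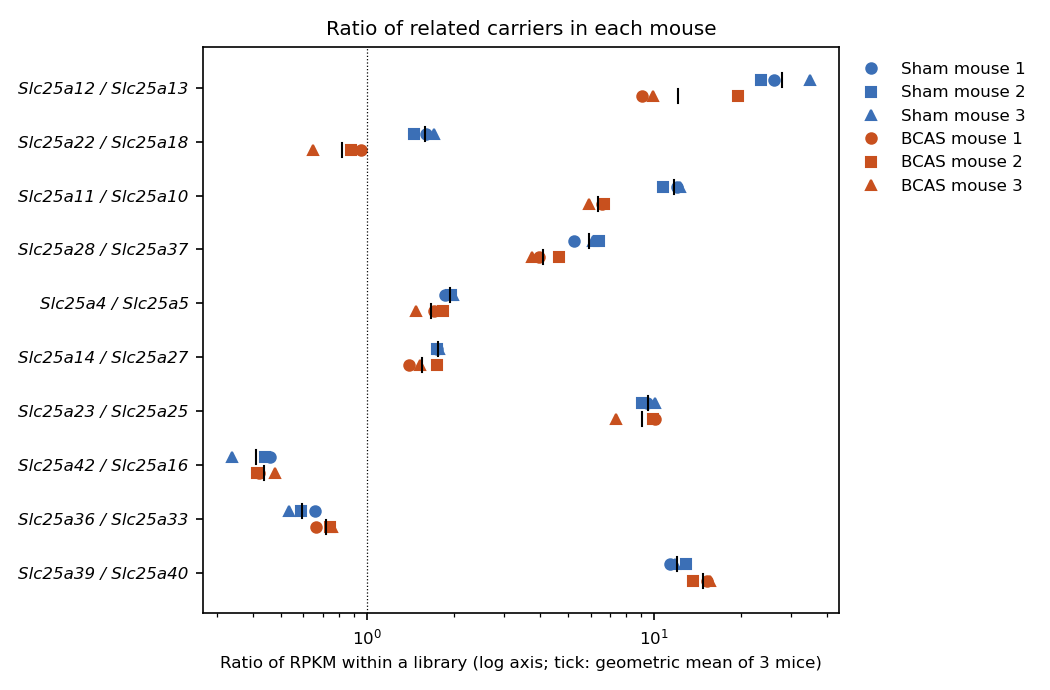
Ratio of RPKM of 2 related carriers within each library on a log axis, for 10 pairs, with a tick at the geometric mean of the 3 mice of a group. The ratio of Slc25a22 to Slc25a18 lies above 1 in the 3 sham mice and below 1 in the 3 BCAS mice with the exon lengths used, and 7 of the 10 pairs have groups that do not overlap.

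The ADP/ATP carriers exchange cytosolic ADP for ATP made in the matrix. Of the 2 tested members, Slc25a4 was lower and Slc25a5 did not pass. Slc25a4 (Ant1, chr8:46206797-46211284, minus strand), the form of heart, muscle and brain, had 578, 628 and 681 CPM in sham mice and 484, 522 and 437 CPM in BCAS mice. The groups did not overlap, with a log2 fold change of −0.39 (SE 0.11, 95% interval −0.63 to −0.15, edgeR adjusted p = 0.0230). This was the member with the most counts in the family, so its difference of means, from 629 ± 51.6 to 481 ± 42.9 CPM (SD, n = 3), was also the largest in CPM. Slc25a5 (Ant2), the form of growing cells, had 216, 224 and 240.0 CPM in sham mice and 199, 199 and 206 CPM in BCAS mice, without overlap. Its log2 fold change was −0.17 (95% interval −0.34 to −0.0065, edgeR adjusted p = 0.106). Reads that aligned to several places were not counted, so the level of Slc25a5, which has processed copies in the genome, is uncertain. The germline form Slc25a31 had 0 to 4 counts per library and was not tested. The call on Slc25a4 was lost without sham mouse 2 (edgeR adjusted p = 0.0756), sham mouse 3 (0.0897) or BCAS mouse 1 (0.0594), and with the replicate block (0.0652).

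The phosphate carrier Slc25a3, which supplies phosphate for ATP synthesis, had 412, 428 and 474 CPM in sham mice and 401, 415 and 402 CPM in BCAS mice. The groups overlapped, and the 95% interval of its log2 fold change ran from −0.30 to 0.0851 (edgeR adjusted p = 0.371). The ATP-Mg/phosphate carriers adjust the adenine nucleotide pool of the matrix, most of them under control of calcium. None of the 3 tested members passed. Slc25a23, the most abundant of them, had 385, 380.4 and 392 CPM in sham mice and 348, 358 and 285 CPM in BCAS mice (log2 fold change −0.23, edgeR adjusted p = 0.119). Slc25a25 had −0.16 (edgeR adjusted p = 0.130) and Slc25a24 had 0.46 (edgeR adjusted p = 0.0864). Slc25a41 and Slc25a54 had 0 to 19 counts per library and were not tested.

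Among the relatives of uncoupling proteins, Slc25a14 (Ucp5), which is expressed in brain, was lower and the other two did not pass. Slc25a14 had 43.3, 40.5 and 45.4 CPM in sham mice and 32.4, 35.5 and 26.3 CPM in BCAS mice. The groups did not overlap (log2 fold change −0.45, SE 0.12, edgeR adjusted p = 0.0181). Slc25a27 (Ucp4) had 38.3 to 42.5 CPM in sham mice and 28.6 to 38.4 CPM in BCAS mice, with a log2 fold change of −0.28 (edgeR adjusted p = 0.0971). Slc25a30 had 12.7 to 17.4 CPM in sham mice and 14.4 to 20.1 CPM in BCAS mice (0.30, edgeR adjusted p = 0.209), and its 3 highest libraries were those with the 3 highest choroid plexus sums. The edgeR adjusted p of Slc25a14 was 0.0623 without sham mouse 1 and 0.0725 without sham mouse 3.

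Of the carriers of citric acid cycle intermediates, Slc25a10 was higher and the other 3 did not pass. Slc25a10 (chr11:120491840-120499187, plus strand) exchanges dicarboxylates such as malate and succinate for phosphate. It had 13.3, 16.7 and 15.8 CPM in sham mice and 21.9, 23.7 and 25.1 CPM in BCAS mice. All BCAS mice were above all sham mice, with a log2 fold change of 0.63 (SE 0.12, 95% interval 0.36 to 0.90, edgeR adjusted p = 0.00479). Slc25a11, the oxoglutarate/malate carrier and the other carrier of the malate-aspartate shuttle, had 97.7, 110.2 and 119 CPM in sham mice and 88.6, 97.2 and 91.5 CPM in BCAS mice. Its log2 fold change was −0.24 (edgeR adjusted p = 0.0673), and 189 of its exonic bases are shared with Rnf167. The citrate carrier Slc25a1, which exports citrate for lipid synthesis, had 34.7 to 37.9 CPM in sham mice and 39.9 to 46.5 CPM in BCAS mice (0.25, edgeR adjusted p = 0.0547). The oxodicarboxylate carrier Slc25a21 was near the limit of testing with 11 to 19 counts in each sham library, against 22 to 42 after BCAS (1.13, edgeR adjusted p = 0.0677).

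The carriers of basic amino acids, glycine and branched-chain amino acids included 2 lower members among 4 tested. Slc25a29, a carrier of basic amino acids, had 18.4, 20.9 and 21.3 CPM in sham mice and 15.5, 14.4 and 13.8 CPM in BCAS mice. The groups were apart, with a log2 fold change of −0.47 (SE 0.11, edgeR adjusted p = 0.0115). Slc25a44, the branched-chain amino acid carrier, had 93.1, 92.6 and 96.1 CPM in sham mice and 67.6, 82.7 and 66.6 CPM in BCAS mice. It was lower by a log2 fold change of −0.38 (SE 0.0926, edgeR adjusted p = 0.0148), and its adjusted p was 0.0581 without sham mouse 3. The ornithine carrier Slc25a15 and the glycine carrier Slc25a38, which serves heme synthesis, had log2 fold changes of 0.0754 and 0.0857 with overlapping groups. Slc25a2, another ornithine carrier, had 1 to 10 counts per library and was not tested. Slc25a29 and Slc25a47 are divergent neighbors with 162 bases between them on chromosome 12, and the log2 fold change of Slc25a47 was 0.11 with overlapping groups. The carnitine/acylcarnitine carrier Slc25a20, which brings fatty acids to oxidation, had 13.6 ± 0.704 CPM in sham mice, against 15.9 ± 1.01 CPM in BCAS mice, with SDs over 3 mice (log2 fold change 0.23, edgeR adjusted p = 0.147).

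Of the 9 nucleotide and cofactor carriers, 1 was lower and 8 did not pass. Slc25a16, which has been linked to the coenzyme A supply of the matrix, had 60.5, 62.5 and 65.7 CPM in sham mice and 52.3, 51.2 and 44.3 CPM in BCAS mice. It was lower by a log2 fold change of −0.35 (SE 0.0844, edgeR adjusted p = 0.0135), and its adjusted p was 0.0597 without sham mouse 3. The fitted values of the other 8 ran from −0.47 for the S-adenosylmethionine carrier Slc25a26 (edgeR adjusted p = 0.0849) to 0.0631 for the folate carrier Slc25a32. Slc25a26 shares 144 exonic bases with Lrig1, with a mean of 31.9 CPM in sham and 70.5 CPM in BCAS mice. The pyrimidine nucleotide carrier Slc25a33 had −0.31 (edgeR adjusted p = 0.0771) and the coenzyme A carrier Slc25a42 had −0.27 (edgeR adjusted p = 0.0847), both without overlap between the groups. The NAD carrier Slc25a51 had −0.17 and the peroxisomal member Slc25a17 had −0.16. For the pyrimidine nucleotide carrier Slc25a36 (−0.0245, 95% interval −0.19 to 0.14) the sign turned with library totals in place of TMM, to 0.0524.

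The mitoferrins bring iron into the matrix for heme and iron-sulfur clusters. Slc25a37 (mitoferrin 1), known from the erythroid lineage, had 23.9, 20.9 and 23.3 CPM in sham mice and 29.0, 33.1 and 31.9 CPM in BCAS mice. All BCAS mice were above all sham mice (log2 fold change 0.46, SE 0.0994, edgeR adjusted p = 0.00834). Slc25a28 (mitoferrin 2), the broadly expressed form, had 31.5, 33.8 and 35.9 CPM in sham mice and 28.9, 38.8 and 30.1 CPM in BCAS mice. Its groups overlapped, with a log2 fold change of −0.0515 (95% interval −0.33 to 0.23, edgeR adjusted p = 0.786) that was 0.0230 with library totals. Of the glutathione carriers, Slc25a39 had 60.6, 66.4 and 65.3 CPM in sham mice and 80.1, 69.2 and 75.8 CPM in BCAS mice (0.23, edgeR adjusted p = 0.0572). Slc25a40 had 16.3 ± 0.584 CPM in sham mice, against 15.4 ± 0.647 CPM in BCAS mice, again with SDs (log2 fold change −0.0798, edgeR adjusted p = 0.590).

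Slc25a46 is a member of the outer membrane that takes part in mitochondrial shape and lipid exchange. It had 124, 126 and 129 CPM in sham mice and 99.0, 102 and 86.4 CPM in BCAS mice. The groups were apart, and the log2 fold change was −0.40 (SE 0.0794, edgeR adjusted p = 0.00612).

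Of the 6 tested members without a settled substrate, 2 were higher and 1 lower, with Slc25a43 among the higher ones through its BCAS counts alone. Slc25a45 (chr19:5877808-5885766, plus strand) had 4.10, 4.49 and 4.93 CPM in sham mice and 10.6, 14.5 and 18.9 CPM in BCAS mice. BCAS mouse 3 was the highest. Within its group this mouse also had the top sums of microglial, astrocyte, endothelial and oligodendrocyte markers and the lowest neuronal sum. A link of Slc25a45 to a cell type was not tested. Every BCAS mouse was above every sham mouse in Slc25a45. The means were 4.51 ± 0.413 and 14.7 ± 4.15 CPM (SD, n = 3 each), a 3.25-fold difference with a log2 fold change of 1.70 (SE 0.21, 95% interval 1.22 to 2.18, edgeR adjusted p = 5.40e-04). By RPKM it ranked 36 within the family in sham mice, against 26 after BCAS. Slc25a43 had 5, 0 and 2 counts in the 3 sham libraries and 18, 17 and 22 in the 3 BCAS libraries. It reached the test through the BCAS libraries alone, so its edgeR adjusted p of 0.0120 describes these counts and supports nothing further. Its fitted log2 fold change of 3.07 (SE 0.72, 95% interval 1.45 to 4.69) rests on few sham counts. Scaled to library size, the 57 BCAS counts were 8.82 times the 7 sham counts (95% interval 4.01 to 22.9, counting error only). Without sham mouse 3 its adjusted p was 0.0549.

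Slc25a34 had 4.72, 4.70 and 5.39 CPM in sham mice and 2.83, 2.82 and 2.76 CPM in BCAS mice. The BCAS values lay within a narrow range below all sham mice, with a log2 fold change of −0.82 (SE 0.17, 95% interval −1.21 to −0.43, edgeR adjusted p = 0.00790). Its relative Slc25a35 had a log2 fold change of −0.0441 with overlapping groups, which was 0.0359 with library totals, and 31.3% of its exonic bases are shared with Rangrf. Slc25a53 had −0.21 (edgeR adjusted p = 0.186). Slc25a48, low in BCAS libraries, was removed by the same filter and not tested, with 14, 6 and 8 counts in sham libraries and 3, 2 and 0 after BCAS. All BCAS libraries were at or under the floor of 3 counts, and the scaled ratio of counts was 0.193 (95% interval 0.0583 to 0.507, counting error only).

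**Figure D4:**
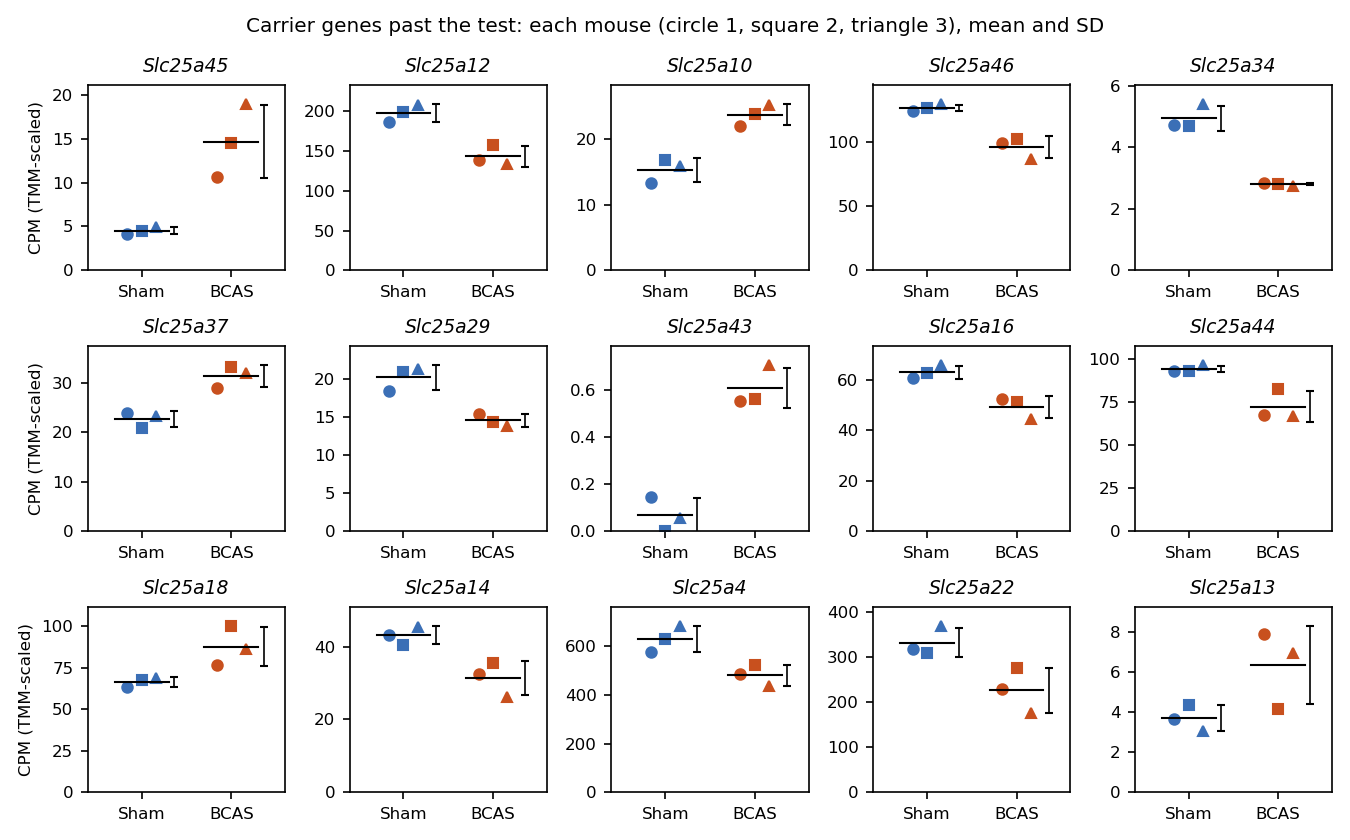
CPM of the 15 carriers past the test in each mouse (circle, square and triangle for mice 1, 2 and 3), with the mean as a line and the SD as a bar, on axes that start at 0, so that the lower part of the sham bar of Slc25a43 is not seen. The groups are apart in 14 panels, and in the panel of Slc25a13 BCAS mouse 2 lies within the sham range.

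Carriers that lack an Slc25a symbol and genes that work with carriers were counted by the same test, and every count of such a list stands beside 18.0% higher and 13.2% lower of all tested genes. With mice left out, the share of all tested genes that was lower was 7.61%, 7.39% and 6.58% without sham mouse 1, 2 and 3, and 10.04%, 16.1% and 9.26% without BCAS mouse 1, 2 and 3. It was 9.4% with the replicate block and 9.6% with library totals. Ucp2, an uncoupling protein that is abundant in immune cells, had 25.6, 37.98 and 21.9 CPM in sham mice and 117, 120.3 and 169 CPM in BCAS mice. It was higher by a log2 fold change of 2.25 (SE 0.22, edgeR adjusted p = 1.30e-04). The outer membrane insertases Mtch1 (−0.38, edgeR adjusted p = 0.0247) and Mtch2 (−0.23, edgeR adjusted p = 0.0306) were lower. Neither was called without sham mouse 2 or without sham mouse 3, where 0 genes of this list were lower, as with the replicate block, and 1 was lower without sham mouse 1, without BCAS mouse 2 or with library totals. In the import route of carriers, formed by the outer membrane translocase, the small Tim chaperones and the Tim22 complex, 6 of 15 tested genes were lower (40.0%, beside 13.2% of all tested genes) and 0 higher (beside 18.0%), with a median log2 fold change of −0.30. The lowest adjusted p values were those of the carrier receptor Tomm70a (−0.54, edgeR adjusted p = 0.00236), the chaperone subunit Timm8b (−0.48, edgeR adjusted p = 0.00765) and the receptor Tomm20 (−0.33, edgeR adjusted p = 0.0164). Leaving out sham mouse 2 or 3 gave 2 lower genes in this route, and leaving out BCAS mouse 3 gave 3. It was 2 with the replicate block and 3 with library totals.

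All 4 enzymes of the malate-aspartate shuttle, which act with Slc25a12 and Slc25a11, were lower, with a median log2 fold change of −0.47. The aspartate aminotransferases Got2 (−0.47, edgeR adjusted p = 0.00389) and Got1 (−0.47, edgeR adjusted p = 0.00862) and the malate dehydrogenase Mdh1 (−0.48, edgeR adjusted p = 0.00904) were the first by adjusted p. Under the alternatives 3 or 4 of them were lower. Of 5 glutamate enzymes, 3 were higher. Ornithine aminotransferase Oat (0.47, edgeR adjusted p = 9.87e-04) and glutamate dehydrogenase Glud1 (0.32, edgeR adjusted p = 0.0123) were higher. The third higher gene of this list was Glul, which acts in the cytosol. The list had 1 higher gene without sham mouse 1 or 2.

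Of the 4 tested enzymes of the carnitine shuttle, which hand acyl groups to Slc25a20, 3 were higher and 1 lower, with a median of 0.74. Cpt1a (0.99, edgeR adjusted p = 0.00334) and Cpt2 (1.13, edgeR adjusted p = 0.00993) move long acyl groups on and off carnitine, and Crat (0.49, edgeR adjusted p = 0.00361) acts on acetyl groups. The lower one was the neuronal form Cpt1c (−0.40, edgeR adjusted p = 0.0157), which was not called without sham mouse 3. Cpt1a had 33.3, 39.99 and 26.7 CPM in sham mice and 73.7, 51.4 and 73.6 CPM in BCAS mice, the same order of mice within each group as the choroid plexus sums. With the choroid plexus covariate 3 genes of this list were higher and 1 lower. Among outer membrane channels, 2 of 3 were lower, Vdac1 (−0.45, edgeR adjusted p = 0.0110) and Vdac3 (−0.39, edgeR adjusted p = 0.0131), and 1 of 3 without sham mouse 2 or without sham mouse 3.

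In the calcium uniporter complex 3 of 7 genes were lower, among them its pore Mcu (−0.43, edgeR adjusted p = 0.00828), and the regulator Micu2 was higher (0.49, edgeR adjusted p = 0.00314). Of 9 fusion and fission genes, 5 were lower and 0 higher, and 3 were lower without sham mouse 2 or 3. Of 7 genes for the pyruvate carrier and the sideroflexins, 1 was higher, Sfxn5 (0.50, edgeR adjusted p = 0.00198). The 11 genes of heme and iron-sulfur synthesis held 2 lower ones, and 1 without sham mouse 1. The 10 one-carbon and glutathione enzymes held 2 higher ones, Gpx1 (0.95, edgeR adjusted p = 6.65e-04) and Gldc (0.30, edgeR adjusted p = 0.0192), and 1 without sham mouse 1, sham mouse 3 or BCAS mouse 1. Without BCAS mouse 2, 1 gene was lower in each of the pyruvate and one-carbon lists.

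Nuclear genes of the respiratory chain were taken by symbol, so the list holds assembly factors as well as subunits. Of its 101 tested genes, 37 were lower (36.6%, beside 13.2% of all tested genes) and 2 higher (1.98%, beside 18.0%). The median log2 fold change was −0.24. Leaving out sham mouse 2 gave 9 lower genes (beside 7.39% of all genes), leaving out sham mouse 3 gave 6 (beside 6.58%) and leaving out BCAS mouse 3 gave 18, and the number was 15 with the replicate block and 21 with library totals. The number higher was 1 with the block and without sham mouse 1, sham mouse 3, BCAS mouse 1 or BCAS mouse 3. Of 77 genes for mitochondrial ribosomal proteins, 12 were lower (15.6%, close to the 13.2% of all tested genes) and 0 higher (beside 18.0%), with a median of −0.21. Leaving out sham mouse 2 or 3 gave 6 or 5 lower genes and leaving out BCAS mouse 1, 2 or 3 gave 7, 23 or 7, and the number was 5 with the replicate block and 6 with library totals.

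**Figure D5:**
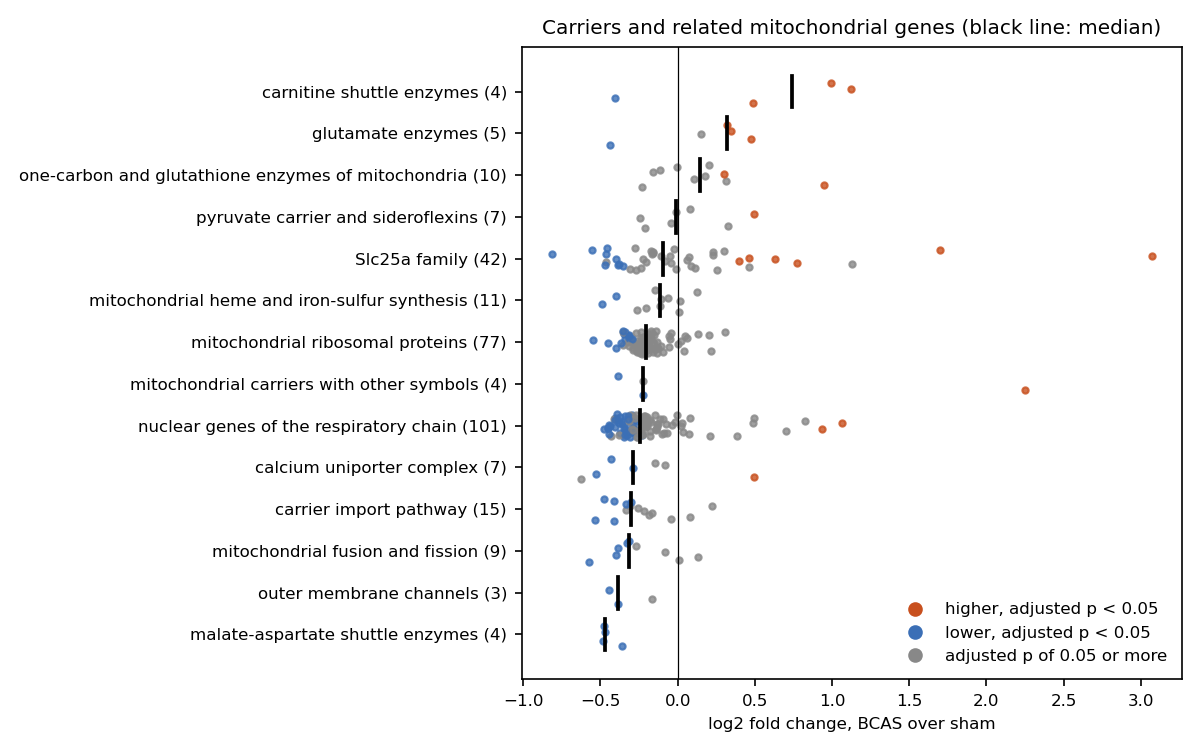
Fitted log2 fold change, BCAS over sham, of each tested gene in the carrier family and in 13 lists of related mitochondrial genes, with the number of tested genes in parentheses and a line at the median of the list. The carriers spread from −0.82 to 3.07 around a median of −0.0946, and the medians of the other lists run from −0.47 for the malate-aspartate shuttle enzymes to 0.74 for the carnitine shuttle enzymes.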

How the data were processed

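RNA-seq libraries of the right hippocampus of 3 sham and 3 BCAS mice were used, grouped by their labels. After trimming and alignment to mm10 with HISAT2, the authors deposited raw counts per gene from featureCounts (version 2.0.3 with GENCODE vM20 in the file headers, version 1.6.3 in the submitters' processing notes). Each mate of a pair counted as 1 read, without regard to strand, and reads with several alignments or in bases shared by genes were left out.

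Symbols were matched by Ensembl identifier, and 29 genes stayed unmatched. Genes were kept by filterByExpr, scaled by TMM and compared with edgeR 4.0.16 (quasi-likelihood test, Benjamini-Hochberg adjustment over all tested genes) in R 4.3.3, without a replicate block. The common biological coefficient of variation was 0.161. CPM and RPKM are TMM-scaled. Gene spans come from the deposited tables, and promoters from RefSeq.

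Members, lists and pairs were chosen with earlier results of these data known. All members are counted, and 1 member and 1 gene of a list are not reported singly here. Full values are given for those past the test and for the pairs, and from a list at most 3 genes are named, by lowest adjusted p, plus Glul and Cpt1c, named after their values were seen. Alternatives were DESeq2 1.42.0, limma-voom 3.58.1, RLE factors, library totals, a filter at 1 count or a mean of 10 counts, a block, and leaving out each mouse. The choroid plexus covariate and the alternatives for the lists were chosen after seeing the data. Only the edgeR, DESeq2 and limma-voom fits were tested on simulated counts, which had a smaller biological coefficient of variation than these data. The ratios, lists and motif counts were not part of that test.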

Additional observations from a re-analysis of the deposited data

How the results depend on the processing

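Of the 15 carriers called, 12 were called under each of the 8 alternatives that kept all mice. The 12 include Slc25a43, which passed the filter of the main fit only through its BCAS libraries, so its place there is a description. Of the 12, 7 were also called whichever mouse was left out (Slc25a10, Slc25a12, Slc25a29, Slc25a34, Slc25a37, Slc25a45 and Slc25a46). No called carrier changed direction under any alternative run. The number called was 16 with DESeq2, 14 with limma-voom, 15 with RLE factors, 17 with library totals, 16 with the filter at 1 count, 15 with the filter at a mean of 10 counts, 19 with the choroid plexus covariate, and 2 when a log2 fold change above 1 was also required. The share of all genes called was 29.8% with DESeq2, 18.8% with the filter at 1 count, 34.9% with the covariate and 30.3% to 31.8% in the other fits of all mice without a block. Leaving out 1 mouse gave 9 to 20 calls, with 4 to 8 higher and 5 to 12 lower, and a median log2 fold change of −0.13 to −0.0522, while 19.8% to 34.7% of all genes were called, lowest without sham mouse 3 and highest without BCAS mouse 2 as for the carriers. With library totals the median of the carriers was −0.0187 and that of all genes 0.0945, and the carriers lay 0.11 below all genes with either scaling. The cause was not tested.

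The methods of the study do not state whether same-numbered mice were paired. Residual correlations of same-numbered sham and BCAS libraries were 0.036, −0.314 and −0.158, and those of the other combinations ran from −0.246 to 0.347. Residuals from a mean of 3 mice are tied to each other, so these values cannot decide whether the replicate numbers paired the mice. With the number as a block, 12 carriers were called, 5 higher and 7 lower, beside 24.3% of all genes, with a median of −0.0936, and Slc25a4, Slc25a13 and Slc25a22 were not called. In a paired form of the ratios, the sign-flip test of 3 pairs cannot go below 0.25.

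Carriers near 0 changed sign. With library totals these were Slc25a28 (0.0230), Slc25a35 (0.0359) and Slc25a36 (0.0524). When 1 mouse was left out they were Slc25a15 (−0.0304 to 0.20), Slc25a28 (−0.20 to 0.0250), Slc25a32 (−0.0427 to 0.16), Slc25a35 (−0.22 to 0.0963), Slc25a36 (−0.0590 to 0.0156), Slc25a38 (−0.00920 to 0.23) and Slc25a47 (−0.0373 to 0.25). The ratio of Slc25a23 to Slc25a25 ranged from −0.15 to 0.0755 and that of Slc25a42 to Slc25a16 from −0.0467 to 0.17 on the log2 scale. The 5 untested carriers, and Slc25a43 and Slc25a21, are limited by depth.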
